A study of Mus musculus with 8 samples.

Results

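Collagens, laminins and matrix glycoproteins were followed in migrating primordial germ cells (PGCs), from which sperm or eggs later form. The genes were chosen by symbol: every collagen chain (Col, a number, a and a number), every laminin chain (Lama, Lamb or Lamc and a number) and the 12 glycoproteins and proteoglycans Fn1, Nid1, Nid2, Hspg2, Fbn2, Sparc, Postn, Dcn, Lum, Vcan, Agrn and Tnc. The rule gave 66 genes with a probe of 1 gene symbol, among 19938 genes measured. They were 44 collagens, 10 laminins and the 12 glycoproteins. The symbol rule itself uses no measured value, but the members were chosen with earlier results of these data known. More than 1 probe was present for 2 members, Col6a5 and Col6a6.

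Each of 8 mouse embryos at embryonic day 9.5 gave 1 microarray. The WT group (Ror2+/+, n = 4) had 25, 25, 22 and 21 somites, and the mutant group (Ror2Y324C/Y324C, n = 4) had 24, 22 to 23, 23 and 21 to 22. Ror2 is a receptor tyrosine kinase for Wnt5a, and the mutation changes 1 residue of it in the whole embryo, so the cells around the PGCs carried it too. All 8 embryos came from Ror2Y324C/+ mothers mated to Ror2Y324C/+ fathers homozygous for the Oct4-ΔPE reporter, on a mixed strain background, and therefore all inherited the reporter. Posteriors of single embryos were digested with trypsin and the GFP-positive cells were sorted, so transcripts and not matrix protein were measured. The question behind the comparison is how Ror2 acts in PGC migration, and here it is asked of the genes that build extracellular matrix.

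Extracellular matrix comes in 2 main forms. Basement membranes are sheets of laminin trimers and type IV collagen, joined by nidogens and the heparan sulfate proteoglycans perlecan (Hspg2) and agrin (Agrn), and they underlie epithelia such as the hindgut that PGCs leave. Interstitial matrix between mesenchymal cells holds fibrillar collagens, fibronectin, versican and fibrillins, and migrating cells grip both forms through integrins and dystroglycan.

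Upstream sequences of 3 members are shown, chosen for their values. Hspg2 had the only WT and mutant values that did not overlap, and Sparc spread most among the members above the background measure explained below. Nid1, above that measure on 2 arrays only, was high on a single mutant array. They are from RefSeq (GRCm38.p6) and stop before the annotated start of the gene. Capitals mark the GC box GGGCGG and the CCAAT box CCAAT on either strand; these are binding motifs of Sp1-family factors and of NF-Y. Hspg2 is chr4:137468553-137468750, plus strand; Nid1 is chr13:13437352-13437601, plus strand, and mostly lies inside the annotated pseudogene Gm7426; Sparc is chr11:55420081-55420330, minus strand.
Hspg2: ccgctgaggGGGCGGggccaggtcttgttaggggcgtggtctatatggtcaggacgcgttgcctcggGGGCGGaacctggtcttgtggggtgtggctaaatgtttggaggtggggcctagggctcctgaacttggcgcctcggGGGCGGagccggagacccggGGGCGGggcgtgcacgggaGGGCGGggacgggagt
Nid1: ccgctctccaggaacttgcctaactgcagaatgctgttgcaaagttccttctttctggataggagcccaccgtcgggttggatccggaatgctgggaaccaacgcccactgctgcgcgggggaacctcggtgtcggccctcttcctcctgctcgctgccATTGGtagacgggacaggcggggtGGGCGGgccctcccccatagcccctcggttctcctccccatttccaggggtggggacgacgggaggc
Sparc: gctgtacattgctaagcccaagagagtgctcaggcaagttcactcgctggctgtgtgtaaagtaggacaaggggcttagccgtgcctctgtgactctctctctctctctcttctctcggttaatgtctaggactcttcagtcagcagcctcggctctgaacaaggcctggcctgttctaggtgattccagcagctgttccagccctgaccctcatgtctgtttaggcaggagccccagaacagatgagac

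The Hspg2 window of 198 bases held 5 GC boxes and no CCAAT box, the Nid1 window of 250 bases held 1 of each, and the Sparc window of 250 bases held neither. In all 32851 RefSeq promoter windows, 24.3% had a GC box within the same 198 bases, and 32.7% had one within 250 bases. RefSeq windows were at hand for 47 of the 66 members (54 windows). Of these 54 windows 57.4% held a GC box and 29.6% a CCAAT box, against 32.7% and 33.8% of all windows. The TATA box TATAAA was in 14.8% of them and in 12.4% of all. These are letter matches in a window and no site of binding was measured.

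The arrays had medians of 5.37 to 5.58 (log2). No scanner values were used, so a background measure was built from the 1190 genes of olfactory and vomeronasal receptors, known for their role in smell: the 95th percentile of their values was 5.06 to 5.51 over the arrays. Marker genes of PGCs (11, among them Pou5f1, Dppa3, Kit and Sox2) were all above the 99th percentile of these receptors on every array. WT 3 stood apart: it had the narrowest spread of values over genes (SD 1.77, against 1.82 to 1.95) and the lowest mean of the PGC markers (9.60, against 9.75 to 9.93). Its means of trunk mesenchyme (5.34), primitive erythroid (5.31), macrophage (5.25), neural tube, neural crest and notochord markers were the highest. Those of endothelium, hindgut, visceral and parietal endoderm and urogenital mesoderm were highest in mutant 4. The median of WT 3 (5.58), the mean of its receptors (3.84) and their 95th percentile (5.51) were also the highest. Of 8 mesenchyme markers 4, and of 6 macrophage markers 4, were below the 95th percentile on all arrays. WT 3 and mutant 4 were the arrays of high Xist (7.07 and 6.31, against 3.50 to 4.11 elsewhere). Some values that rest on either are given with and without it. The number of arrays limits every comparison, and in sorted bulk RNA fewer cells of a type and less RNA per cell cannot be told apart.

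Most matrix genes passed the 95th percentile of the receptors on every array, but only a small part passed the 99th. Of the 66 members 46 (69.7%) lay above the 95th percentile of the receptors on all 8 arrays, as did 49.2% of all genes and 2.35% of the receptors themselves. With the 99th percentile only 14 members (21.2%) did, against 32.1% of all genes. These 14 were Fn1, Nid2, Sparc, Lamc1, Lamb1, Col18a1, Hspg2, Col9a2, Col9a3, Col26a1, Col2a1, Col7a1, Col11a2 and Col22a1. Some passed narrowly: Col11a2 was at 5.74 in WT 1, where the 99th percentile was 5.73, and Col22a1 at 6.34 in WT 3, where it was 6.28. At the other end 10 members were below the 95th percentile on every array: Col12a1, Col28a1, Dcn, Fbn2, Lama2, Lama3, Lama4, Lum, Postn and Tnc. Array values of different probes have no common scale, so no order of levels between genes is read from them.

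**Figure D1:**
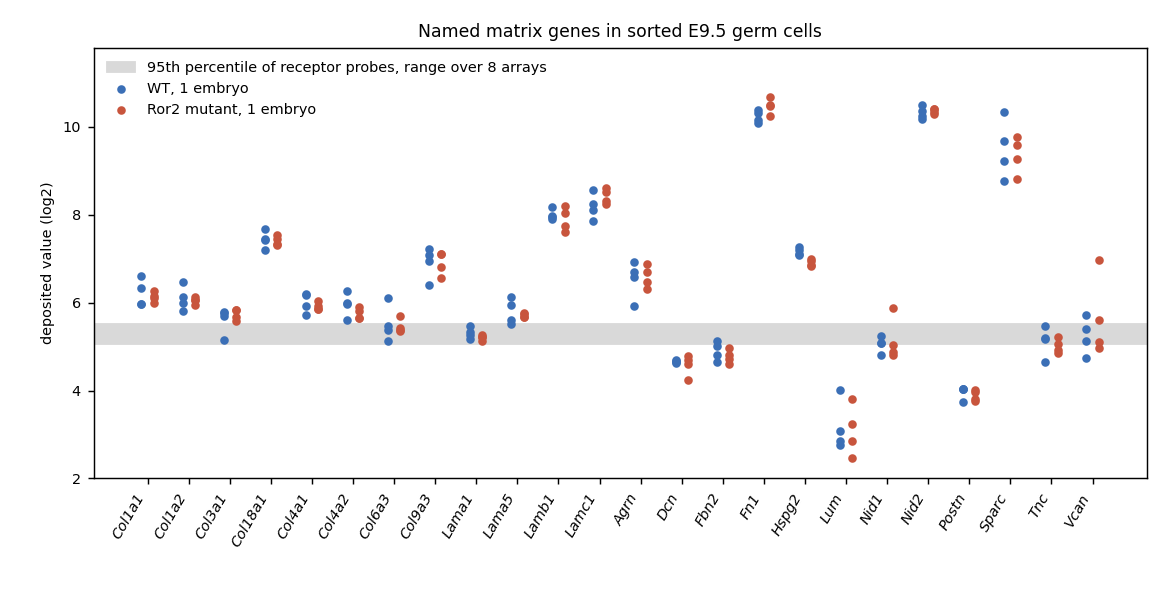
Deposited log2 values of the 24 matrix genes named by rule, with 1 point per embryo (blue WT, red Ror2 mutant, 4 each). The grey band is the range over 8 arrays of the 95th percentile of receptor probes (5.06 to 5.51); Fn1, Nid2, Sparc, Lamb1 and Lamc1 lie well above it, and Lum, Postn and Dcn lie below it.

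The laminin chains are the core of basement membranes, each trimer holding 1 alpha, 1 beta and 1 gamma chain. Lamc1, the gamma chain of most laminins, had values of 8.55, 8.24, 8.11 and 7.85 in WT 1 to 4 and of 8.24, 8.51, 8.62 and 8.31 in mutants 1 to 4. The groups overlapped, with the lowest value in WT 4 and the highest in mutant 3, and the difference was 0.23 (95% interval -0.14 to 0.61). Lamb1, the beta chain of early embryonic laminins, had values of 8.18, 7.98, 7.90 and 7.95 in WT and of 7.61, 7.75, 8.20 and 8.04 in mutants. Its difference was -0.10 (interval -0.45 to 0.24), and the mutants spread on both sides of the WT values.

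The alpha chains carry the domains that bind integrins and dystroglycan. Lama1, the alpha chain of the first embryonic basement membranes, had values of 5.18, 5.27, 5.34 and 5.47 in WT and of 5.27, 5.12, 5.22 and 5.21 in mutants, within the band of the receptor measure. Lama5, the alpha chain that is widespread in later basement membranes, had values of 5.60, 5.52, 5.96 and 6.12 in WT and of 5.66, 5.76, 5.68 and 5.75 in mutants. The mutant values of Lama5 lay inside the range of WT (SD 0.05 in mutants and 0.29 in WT), and this difference in spread was not tested. Lama2, Lama3 and Lama4 were below the receptor measure on all arrays, while Lamb2, Lamb3 and Lamc3 were above it on all arrays.

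Type IV collagen forms the second network of basement membranes. Col4a1 and Col4a2, the chains of the most common trimer, are neighbours on 1 chromosome and transcribed away from each other. Col4a1 had values of 5.72, 5.92, 6.20 and 6.16 in WT and of 5.93, 5.86, 5.86 and 6.03 in mutants. Col4a2 had values of 5.60, 5.96, 6.26 and 5.99 in WT and of 5.91, 5.65, 5.66 and 5.80 in mutants, a difference of -0.20 (interval -0.55 to 0.15). Both were lowest in WT 1 and highest in WT 3. Col18a1, the basement membrane collagen that gives rise to endostatin, had values of 7.45, 7.19, 7.67 and 7.44 in WT and of 7.32, 7.30, 7.45 and 7.54 in mutants, with groups that overlapped.

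The linkers of the laminin and collagen networks had unlike patterns. Nid2, a nidogen, was among the steadiest members, with values of 10.50, 10.26, 10.36 and 10.19 in WT and of 10.41, 10.34, 10.41 and 10.30 in mutants. Its difference was 0.04 (interval -0.23 to 0.31), so a change of more than 0.31 in either direction lay outside the interval. Nid1, the other nidogen, had values of 5.09, 4.80, 5.25 and 5.08 in WT and of 4.87, 4.81, 5.03 and 5.88 in mutants: mutant 4 was apart from the other 7 arrays. Nid1 was above the receptor measure on 2 arrays only (WT 1 and mutant 4) and above the 99th percentile of the receptors on none. Most of its values could thus not be told apart from background. Agrn had values of 6.71, 5.92, 6.58 and 6.93 in WT and of 6.88, 6.47, 6.32 and 6.69 in mutants, with WT 2 the lowest.

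Hspg2 (perlecan) was the 1 member whose groups did not overlap. Its values were 7.21, 7.08, 7.10 and 7.27 in WT and 6.86, 7.00, 6.94 and 6.84 in mutants. Every mutant array was lower than every WT array, with means of 7.17 ± 0.09 and 6.91 ± 0.07 (SD, n = 4 each). The difference was -0.26 ± 0.12 (SE; interval -0.52 to 0.0047, 0.837 of WT on the linear scale) and it did not pass, with a limma adjusted p of 0.973 and an unadjusted p of 0.0536. Over the alternatives it ran from -0.29 to -0.20, its adjusted p from 0.604 to 1.00, and its groups met only after median centring. Of all genes 2.52% had groups that did not overlap (1.44% with the mutants lower and 1.08% with them higher), and 1 of 66 members is 1.52%.

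Among interstitial proteins, Fn1 (fibronectin, an integrin ligand of mesenchymal matrix) had values of 10.31, 10.39, 10.15 and 10.10 in WT. In mutants they were 10.25, 10.48, 10.68 and 10.49. Mutants 2, 3 and 4 were above all WT arrays and mutant 1 was not, and the difference was 0.24 ± 0.14 (SE; interval -0.07 to 0.54; unadjusted limma p 0.113, adjusted 0.973). Fbn2, a fibrillin of embryonic microfibrils, was at 4.90 ± 0.21 in WT and 4.77 ± 0.16 in mutants (SD, n = 4 each) and was below the receptor measure throughout.

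Fibrillar collagens make the fibres of connective tissue. Col1a1 had values of 5.97, 5.98, 6.60 and 6.32 in WT and of 6.10, 6.14, 5.98 and 6.27 in mutants. Col1a2, the second chain of type I collagen, was at 5.80, 5.99, 6.47 and 6.12 in WT and at 6.06, 6.05, 5.94 and 6.14 in mutants. Both had their highest value in WT 3, and neither exceeded the 99th percentile of the receptors on every array. Col3a1, the chain of type III collagen, had values of 5.15, 5.69, 5.78 and 5.79 in WT and of 5.84, 5.67, 5.59 and 5.83 in mutants, with WT 1 far below the rest. Of 8 trunk mesenchyme markers, 4 (Prrx1, Tbx18, Meox1 and Foxc2) were below the receptor measure on all arrays, Foxf1, Pdgfra and Twist1 were above it on 3, 2 and 1 arrays, and Tcf15 was above it on all 8.

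Col6a3 and Col9a3 were named for their wide range. Col6a3, the long chain of the beaded type VI collagen, had values of 5.12, 5.47, 6.11 and 5.38 in WT and of 5.42, 5.36, 5.37 and 5.69 in mutants, so its range was set by WT 1 and WT 3. Col9a3, a chain of a collagen known from cartilage, had values of 6.39, 6.95, 7.22 and 7.08 in WT and of 7.10, 6.81, 6.57 and 7.11 in mutants, again with WT 1 lowest and WT 3 highest.

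The matricellular and proteoglycan members included the most variable genes. Sparc, a secreted protein that binds collagen and calcium, had values of 9.67, 8.76, 9.21 and 10.35 in WT and of 8.82, 9.26, 9.59 and 9.77 in mutants. Its range of 1.59 was the widest among the 46 members above the receptor measure, and the groups overlapped almost wholly (difference -0.14, interval -0.85 to 0.57). Vcan (versican), a large hyaluronan-binding proteoglycan of loose mesenchyme, had values of 5.12, 4.75, 5.72 and 5.39 in WT and of 5.61, 5.10, 4.97 and 6.96 in mutants. Mutant 4 was the highest array for Vcan as for Nid1, and its difference of 0.42 (interval -0.45 to 1.29) was -0.02 without mutant 4. Nid1 in turn went from 0.09 to -0.15 without mutant 4. Vcan was above the receptor measure on 5 arrays and Nid1 on 2.

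Some other genes were also highest in mutant 4. Afp, a secreted protein of visceral endoderm, was at 6.39 there and from 4.03 to 4.43 on the other 7 arrays. Osr1, a factor of intermediate mesoderm, was at 5.85 there and from 4.86 to 5.37 elsewhere, and was above the receptor measure on 3 arrays. Of the 5 urogenital mesoderm markers 2 (Osr1 and Lhx1) were highest in mutant 4. The rest were not: Pax2 was at 5.45 there and 5.96 in WT 4, Pax8 at 6.22 and 7.02 in WT 4, and Wt1 at 5.76 and 6.01 in WT 3. The mean of the 5 visceral and parietal endoderm markers reached 5.47 in mutant 4, whereas mutants 1 to 3 had 4.90 to 5.09 and the WT arrays 4.80 to 5.03. Afp carried this: over the other 4 markers mutant 4 had a mean of 5.24, mutant 2 one of 5.36, and the WT arrays lay between 4.99 and 5.19. The mean of the 5 urogenital mesoderm markers was 5.78 there, and its WT range was 5.37 to 5.71. Of the endoderm markers 1 was above the receptor measure on all arrays and 2 (Apob and Ttr) were above it on none; of the urogenital markers 3 were above it on all. Their part in the values of Vcan and Nid1 was not tested.

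Tnc (tenascin), Postn (periostin), Dcn (decorin) and Lum (lumican) are typical of mesenchyme and fibroblasts. Dcn was at 4.66 ± 0.03 in WT and 4.59 ± 0.24 in mutants, Postn at 3.96 ± 0.15 and 3.89 ± 0.13, Tnc at 5.12 ± 0.34 and 5.02 ± 0.16, and Lum at 3.17 ± 0.57 and 3.09 ± 0.58 (SD, n = 4 each). None of these 4 exceeded the receptor measure on any array, so their expression could not be told apart from background, and differences among their values carry no more than that.

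**Figure D2:**
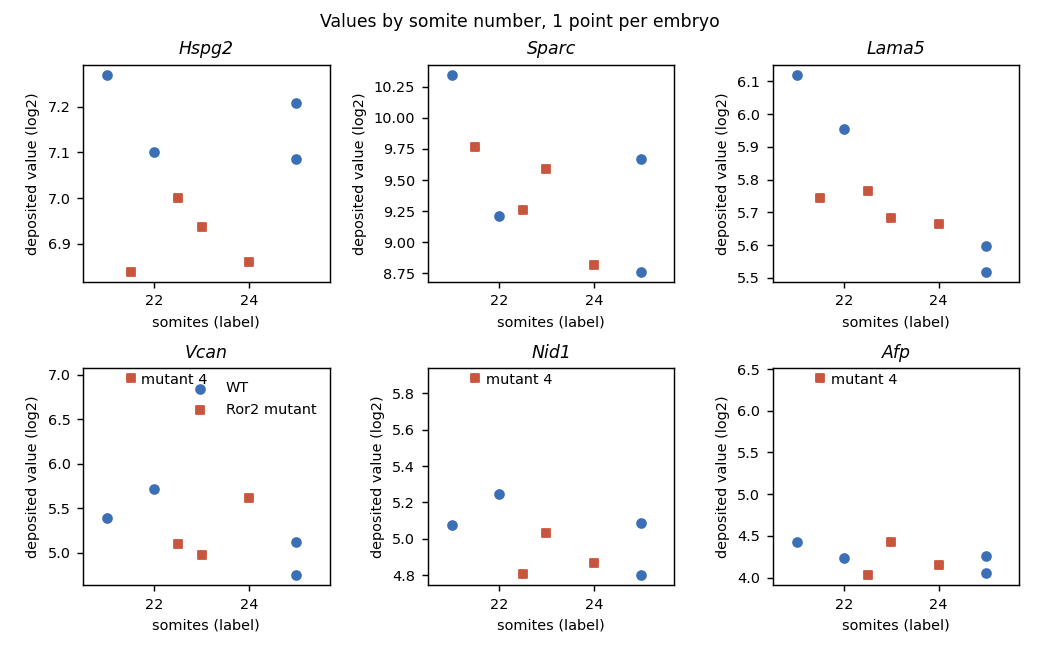
Deposited log2 values against the somite number of the embryo (midpoint of the label), for Hspg2, Sparc, Lama5, Vcan, Nid1 and the endoderm marker Afp. Blue circles are WT and red squares Ror2 mutants, 1 point per embryo; mutant 4 is apart in Vcan (6.96), Nid1 (5.88) and Afp (6.39), and the y axes do not start at 0.

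The comparison of mutants with WT over all members gave no call. By limma, 0 of 66 members had an adjusted p under 0.05, as had 0% of all 19938 genes, and the smallest adjusted p among members was 0.973. At an unadjusted p under 0.05 there were 0 of 66 members, where 4.68% of all genes had one. Differences ran from -0.26 for Hspg2 to 0.42 for Vcan, and the median SE of a member was 0.16. The median difference of members was -0.06, beside -0.02 over all genes. Of the members 19 were higher and 47 lower in mutants on the deposited values, a split that was 24 and 42 after quantile normalization and 34 and 32 after median centring. It was 39 and 27 without WT 3, and 27 and 39 without both WT 3 and mutant 4. Of all genes 55.4% were lower on the deposited values and of the receptors 72.8%, beside 71.2% of the members, so the split of the members was near that of the receptors.

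By class, 7 of 8 basement membrane collagens, 6 of 11 fibrillar collagens, 20 of 25 other collagens, 7 of 10 laminins and 7 of 12 glycoproteins were lower in mutants, none of them past the test, where 55.4% of all genes and 72.8% of the receptors were lower. Without WT 3 the same classes had 3 of 8, 2 of 11, 10 of 25, 7 of 10 and 5 of 12 lower, beside 49.8% of all genes and 62.5% of the receptors. WT 1 also mattered. Without it 4 members had an unadjusted p under 0.05 (Col4a2 -0.32, Col6a4 -0.38, Lamc3 -0.34 and Lamc1 0.36), 8 had groups that did not overlap and 0 passed adjustment, while 8.60% of all genes had such a p and 9.47% such groups.

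**Figure D3:**
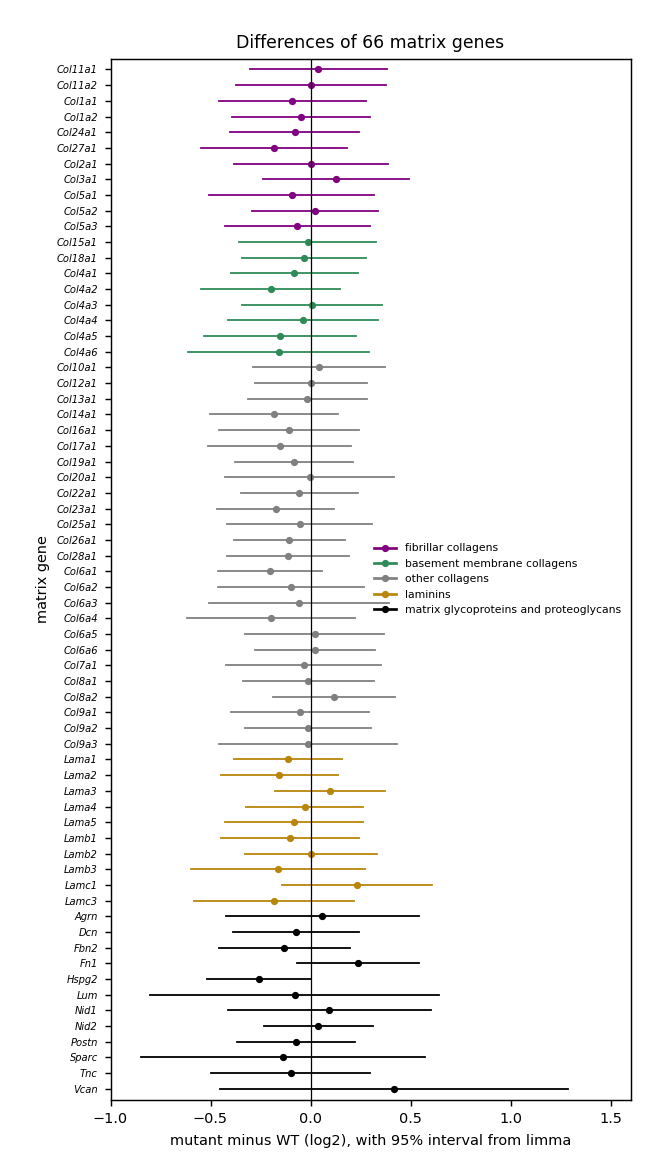
Difference of mutant minus WT (log2, dots) with the 95% interval from limma (lines) for the 66 matrix genes, coloured by class. Every interval includes 0; that of Hspg2 ends nearest to it (-0.52 to 0.0047) and that of Vcan is the widest.

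Somite number, the stage of the embryo, was fitted with genotype in the model. Of 66 members 60 had a negative slope, with a median of -0.07 log2 per somite, beside -0.02 over all genes, of which 59.5% were negative. Of the receptors 70.3% had a negative slope, with a median of -0.03. Negative slopes were found in 10 of the 14 members above the 99th percentile of the receptors on every array and in 50 of the other 52. Without WT 3 the median slope of members was -0.05. By limma no slope of a member passed adjustment (0 of 66, and 0% of all genes), while 3 (4.55%) had an unadjusted p under 0.05, where 9.74% of all genes did (4.72% negative, 5.02% positive). These were Lama5 (-0.12 ± 0.04 per somite, SE; unadjusted p 0.0185, adjusted 0.474), Sparc (-0.23 ± 0.09; 0.0351, adjusted 0.492) and Col1a1 (-0.11 ± 0.05; 0.0378, adjusted 0.494). In Lama5 the WT embryos of 21 and 22 somites had 6.12 and 5.96, and those of 25 had 5.60 and 5.52. The mutants differed less by stage: from the fewest to the most somites they had 5.75, 5.76, 5.68 and 5.66. Whether the slope of Lama5 differed between the genotypes was not tested. The positive slopes of smallest p were those of Lamc1 (0.10 ± 0.05), Nid2 (0.04 ± 0.04) and Fn1 (0.03 ± 0.05). Over the alternatives the slope of Sparc ran from -0.34 to -0.08 and that of Lama5 from -0.17 to -0.09, with adjusted p from 0.423 and 0.399 up to 1.00.

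Many collagens had a similar profile over the arrays. WT 3 was the highest array for 32 of 44 collagens (72.7%), as it was for 24.2% of all genes and 33.0% of the receptors, and WT 1 was the lowest for 25 (56.8%), against 18.3% and 22.3%. The laminins and glycoproteins did so less often: WT 3 was highest for 7 of 22 and WT 1 lowest for 2, a contrast that was not tested. Over the 8 arrays the mean correlation between 2 collagens was 0.62, between 2 receptors 0.16, between 2 laminins or glycoproteins 0.10 and between any 2 genes 0.02. It was 0.48 among collagens after quantile normalization and 0.55 without WT 3. It was not calculated without WT 1 or after median centring. All genes were read on the same 8 arrays, and 8 of the 44 collagens passed the 99th percentile of the receptors on every array. Among all 14 members that passed it, which include laminins and glycoproteins, the mean correlation was only 0.08 (0.23 after quantile normalization). The 95th and 99th percentiles of the receptors were likewise highest in WT 3 (5.51 and 6.28) and lowest in WT 1 (5.06 and 5.73). Whether the profile of the collagens follows this background was not tested.

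**Figure D4:**
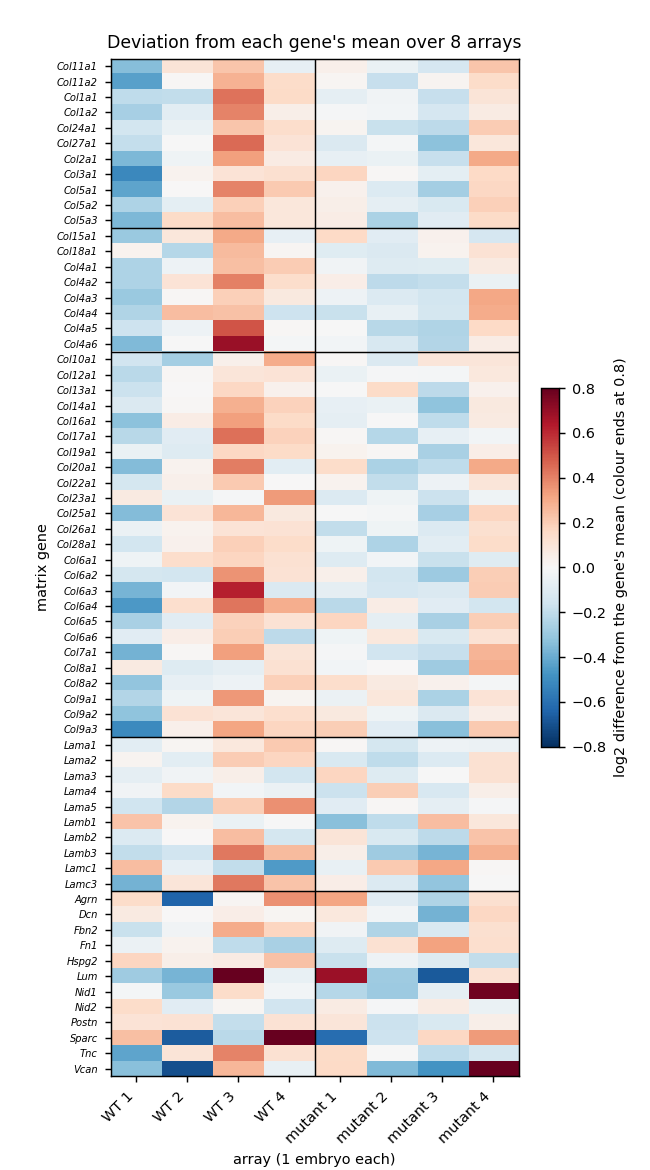
Deviation of each of the 66 matrix genes from its own mean over the 8 arrays (log2; red above, blue below, colours end at 0.8). Lines separate, from the top, fibrillar, basement membrane and other collagens, laminins and glycoproteins, and WT from mutants; most collagen rows are red in WT 3 and blue in WT 1, and Vcan and Nid1 are red in mutant 4.

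For 12 pairs of members that assemble together, lie side by side or belong to the same network, correlations over the 8 arrays were tested by exact permutation, two-sided, and adjusted over the 12. In the 2 chains of type I collagen (Col1a1 and Col1a2) r was 0.95 (exact p 0.000223, adjusted 0.00268) and rho 0.93 (exact p 0.00223, adjusted 0.0183). For Col5a1 and Col5a2, the chains of type V collagen, r was 0.94 (exact p 0.000992, adjusted 0.00528) and rho 0.90 (exact p 0.00456, adjusted 0.0183). For the neighbours Col4a5 and Col4a6 r was 0.94 (exact p 0.00149, adjusted 0.00528) and rho 0.86 (exact p 0.0107, adjusted 0.0321). For Col4a1 and Col4a2 r was 0.86 (exact p 0.0066, adjusted 0.0158) and rho 0.90 (exact p 0.00456, adjusted 0.0183). All 4 are collagen pairs, whose mean r was 0.62 whatever the pair.

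Without the 2 arrays farthest from the median of the first gene, r was 0.85 for Col1a1 and Col1a2 (exact p 0.0264), 0.86 for Col5a1 and Col5a2 (0.0292), 0.76 for Col4a5 and Col4a6 (0.0778) and 0.66 for Col4a1 and Col4a2 (0.151). The 2 type IV pairs also missed the threshold without WT 3 alone, with r of 0.77 for Col4a1 and Col4a2 and 0.80 for Col4a5 and Col4a6 (adjusted exact p 0.0795 each). With somite number removed, r of Col4a1 and Col4a2 was 0.99 (adjusted permutation p 0.000298). Values left after such a fit are not freely exchangeable between arrays, so this p is not exact and may be too small. After quantile normalization Col1a1 and Col1a2 were the only pair past the threshold (r 0.95, exact p 0.000372, adjusted 0.00446).

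The 3 laminin pairs tested had unlike relations. Lama1 and Lamc1, partners in the first embryonic laminin, ran in opposite directions (r -0.91, exact p 0.00176, adjusted 0.00528; rho -0.83, exact p 0.0154, adjusted 0.0369), with r of -0.84 without WT 4 and mutant 2 (exact p 0.0319) and -0.59 after quantile normalization (exact p 0.128). This relation missed the threshold without WT 4 alone (r -0.81, adjusted exact p 0.0512) and after median centring (r -0.42, adjusted exact p 0.459). Lamb1 and Lamc1 had an r of 0.34 (exact p 0.416) and a rho of 0.52 (exact p 0.197). Lama5 and Lamc1 had an r of -0.70 (exact p 0.054, adjusted 0.0926), which was 0.28 without WT 4 and WT 3 and -0.86 without WT 2 (adjusted exact p 0.0204). Values of Lama1 lay near the receptor measure. The remaining 5 pairs (Col4a3 with Col4a4, Col1a1 with Col3a1, Nid1 with Lamc1, Col4a1 with Sparc, and Hspg2 with Agrn) did not pass, with r from -0.10 to 0.77 and adjusted exact p from 0.0512 to 0.875. Col4a3 with Col4a4 did pass without WT 2 (adjusted exact p 0.0204) and without WT 4 (0.0125). The pair also passed with somite number removed (adjusted permutation p 0.0215) and with the replicate block (0.0321), where p is again not exact.

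**Figure D5:**
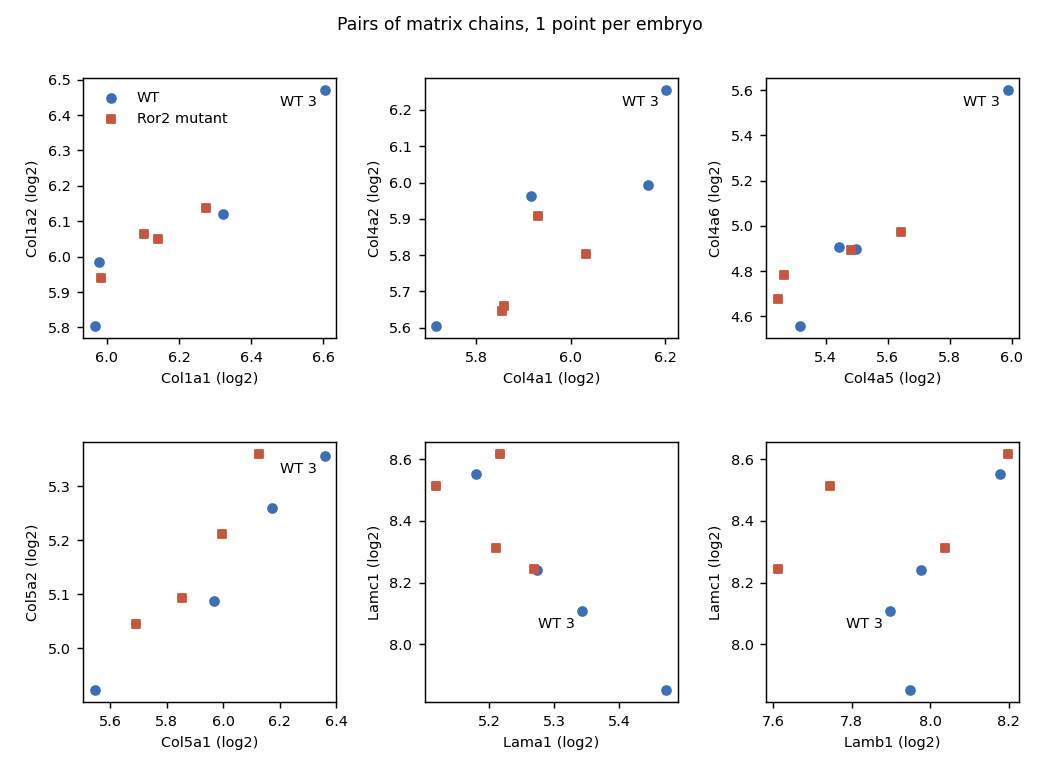
Log2 values of 6 pairs of matrix chains, 1 point per embryo (blue circles WT, red squares Ror2 mutants). The 4 collagen pairs rise together with WT 3 at the upper right, r 0.86 to 0.95, while Lamc1 falls as Lama1 rises (r -0.91) and shows no clear relation with Lamb1 (r 0.34).

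The genes that make, bind and cut matrix were read from lists of their own. Of 29 measured enzymes and chaperones of collagen processing, 3 (10.3%) had higher values in mutants with an unadjusted limma p under 0.05, beside 2.72% of all genes. For 0 of them was such a p on the lower side, and 0 passed adjustment. P4ha1, a catalytic subunit of collagen prolyl hydroxylase, had values of 6.99, 6.73, 6.25 and 6.57 in WT and of 6.88, 6.90, 7.24 and 7.33 in mutants. Its difference was 0.45 ± 0.18 (SE; unadjusted p 0.0311, adjusted limma p 0.973), with groups that overlapped. Plod2, a lysyl hydroxylase, differed by 0.47 ± 0.21, and Colgalt1, a collagen galactosyltransferase, by 0.33 ± 0.14. The procollagen protease Adamts3 was the 1 list member of 29 (3.45%) whose groups did not overlap (-0.25), where 2.52% of all genes had such groups.

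Of 27 matrix receptors 1 was lower at such a p (1.96% of all genes were) and 0 higher: Itga1, the alpha subunit of a collagen-binding integrin, had values of 5.03, 5.24, 5.62 and 5.33 in WT and of 5.10, 4.67, 4.55 and 4.27 in mutants, a difference of -0.66 ± 0.19 (SE). Mutant 1 alone overlapped with WT, and the limma adjusted p was 0.973. Itga1 was above the receptor measure on 1 array only, so most of its values could not be told apart from background. Dag1 (dystroglycan, a laminin receptor) differed by 0.30 at an unadjusted limma p of 0.141. Of 33 proteases and inhibitors 1 (3.03%, beside 1.96% of all genes) was lower, the metalloprotease Mmp3 (-0.47 ± 0.18, limma adjusted p 0.973). Mmp28 (-0.27) was the 1 (3.03%, beside 2.52% of all genes) with groups that did not overlap. Neither was above the receptor measure on any array, so their values could not be told apart from background. Of 36 further matrix genes 1 (2.78%) was higher, near the 2.72% of all genes, and 0 lower. It was the calcium-binding protein Smoc1 (0.60 ± 0.23), with a limma adjusted p of 0.973. In that last list 8 genes (22.2%) had a negative somite slope at an unadjusted p under 0.05, where 4.72% of all genes did, and 0 passed adjustment. Of these 8, 3 were above the receptor measure on all arrays, among them Frem2 (-0.14 ± 0.05 per somite), 1 on some and 4 on none. The other lists had smaller shares of such negative slopes. They were 3 of 27 matrix receptors (11.1%), 1 of 29 processing genes (3.45%) and 1 of 33 proteases and inhibitors (3.03%). Positive slopes at such a p numbered 1, 2 and 0 in these lists, where 5.02% of all genes had one, and 0 slopes passed adjustment.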

How the data were processed

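Each array gives 1 value per probe (35557 probes). The deposited table names no unit, and its values were taken as log2 from their range; the authors' background correction and normalization are not stated in these sources, and no further scaling was applied. Labels' protocols name NuGEN amplification kits and no batch. Of the probes 21789 had 1 gene symbol; each gene was represented by its probe of highest mean. Mutants were compared with WT, and slopes per somite fitted with genotype, by limma 3.58.1 in R 4.3.3 (lmFit, eBayes) over 19938 genes with Benjamini-Hochberg adjustment (threshold 0.05; 95% intervals). The code was tested on simulated data. Alternatives were quantile normalization, median centring, the mean of probes, above-median genes, a variance trend, a somite covariate, embryo number as a block, and arrays left out. The members, the lists and the naming rule were chosen with earlier results of these data known. That rule took members whose groups did not overlap or with an unadjusted p under 0.05, the 3 somite slopes of smallest p per direction, the 4 widest ranges above the receptor measure, and 22 genes whatever their values; other lists gave up to 3 genes per direction. Dag1, Adamts3, Mmp28, Frem2 and the marker genes named beside mutant 4 were chosen after their values were seen. No protein sequences were used. Of the genes that the symbols name, 1 is not reported here.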

Additional observations from a re-analysis of the deposited data

Results flagged for a closer look

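In 5 groups of 4 arrays, 1 array lay far from the other 3, by a test on the gap relative to the group's range; 132 groups (66 members in WT and in mutants) were examined and chance alone flags about 6.6. WT 1 was low for Col3a1 (5.15, others from 5.69 to 5.79) and for Col9a2 (6.69, others from 7.10 to 7.14). WT 3 was low for Postn (3.74, others from 4.03 to 4.04), and WT 2 was high for Lama4 (4.14, others from 3.94 to 3.97). Mutant 3 was low for Col19a1 (5.08, others from 5.35 to 5.40).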

How the results depend on the processing

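No member passed adjustment for genotype or somite slope in any of the 16 alternatives, and the smallest adjusted p of a named difference was 0.578 (Lamc1 without WT 1). At an unadjusted p the count for genotype was 1 after quantile normalization (Hspg2) and 0 to 4 with 1 array left out. Such a p was found for 4.86% and for 3.66% to 8.60% of all genes. Groups that did not overlap numbered 2 after quantile normalization, 3 without WT 3 and mutant 4, and 1 to 8 with 1 array left out. Over all genes the shares with such groups were 2.71%, 9.37% and 4.38% to 9.47%. The count for the somite slope at an unadjusted p was 1 after median centring, 0 with the replicate block and 2 to 5 with 1 array left out. Its shares over all genes were 9.58%, 3.39% and 6.51% to 11.6%. Pairs past the threshold numbered 5, and 1 after quantile normalization, 2 after median centring, 0 without WT 3 and mutant 4 (6 arrays), and 3 to 7 with 1 array left out. The background measure kept 14 members at its 99th percentile. Same-numbered embryos did not deviate together (r -0.05, 0.04, -0.19 and 0.10), so the replicate block has no basis in the data. Small differences turned sign, and the cause was not tested. After quantile normalization these were Nid2 (-0.019) and Dcn (0.00033), and r of Nid1 and Lamc1 (0.21). After median centring they were Col6a3 (0.0021), Col9a3 (0.050), Col1a2 (0.013) and Col18a1 (0.029), and r of Nid1 and Lamc1 (0.0082). The latter r was 0.19 with the somite covariate and 0.48 with the replicate block, and r of Col4a1 and Sparc was -0.41 and -0.52. Without WT 3 and mutant 4, Col6a3 was 0.061, Col9a3 0.021, Nid1 -0.086, Col1a2 0.047, Col18a1 0.0022, Tnc 0.046 and Lum 0.15. With 1 array left out the differences ran from -0.15 to 0.19 for Agrn, -0.11 to 0.047 for Col18a1, -0.18 to 0.037 for Col1a1, -0.15 to 0.077 for Col1a2, -0.022 to 0.19 for Col3a1, -0.19 to 0.14 for Col6a3, -0.18 to 0.098 for Col9a3, -0.14 to 0.041 for Dcn, -0.18 to 0.023 for Lama5, -0.32 to 0.20 for Lum, -0.15 to 0.21 for Nid1, -0.0061 to 0.096 for Nid2, -0.38 to 0.15 for Sparc, -0.26 to 0.016 for Tnc and -0.015 to 0.65 for Vcan. The correlations ran from -0.18 to 0.45 for Col4a1 and Sparc, -0.28 to 0.31 for Hspg2 and Agrn, and -0.26 to 0.0078 for Nid1 and Lamc1.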
